A study of Rattus norvegicus with 24 samples.

Results

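Galectins are small lectins that bind β-galactoside sugars on glycoproteins. The 5 genes described here encode galectin-1 (Lgals1), galectin-3 (Lgals3), galectin-8 (Lgals8), galectin-9 (Lgals9) and the galectin-3 binding protein (Lgals3bp). They were taken because Lgals3 showed a large difference between diabetic and control retinas at 3 months, so the 3 month differences of these genes are given as a description without a p-value. Every probe whose transcript accession on the array led to 1 of the 5 symbols was used, which gave 5 probes, 1 per gene, among 4675 probes of 4013 genes that could be given a symbol. The signal of 4 of the 5 probes passed the limit for testing, and that of Lgals9 did not.

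RNA from the retinas of male Sprague Dawley rats was labeled and hybridized to CodeLink rat whole genome arrays, which carry 1 spotted oligonucleotide per probe and are read in 1 color. Diabetes had been induced by intraperitoneal streptozotocin (STZ), a toxin of the insulin-producing beta cells, and control rats had received the buffer alone. The groups were 1M Control, 1M STZ, 3M Control and 3M STZ, for 1 and 3 months after injection, with 6 arrays each and separate controls at each time. The animal data of the study list fewer 1 month control rats than there are 1M Control arrays, so it is not settled here that each of those arrays is a different rat, and n counts arrays. The diabetic rats were given no insulin, so the model is one of sustained insulin deficiency, and the labels give no age.

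Each value was the brightness of a spot after subtraction of local background, divided by the median of the rat probes of its array, and is called the scaled intensity. Before scaling, that median lay between 124 and 360 on 1M Control arrays, 156 and 303 on 1M STZ arrays, 149 and 308 on 3M Control arrays and 125 and 164 on 3M STZ arrays. The spread of an array, the interquartile range of log2 intensity, was 3.36 to 3.67 over the 1 month arrays, 1.48 to 2.23 in 3M Control and 2.07 to 2.70 in 3M STZ. Brightness and spread thus moved with the 3 month groups, and their part in the 3 month differences was not tested beyond the alternatives that hold either as a covariate. The labelled tissue was checked with 5 rod genes, all of which were above the limit for testing, among them arrestin (Sag) and recoverin (Rcvrn). Lens genes were also bright, with a summed scaled intensity of 10 genes between 64.6 and 997 over the 24 arrays. Array 2 of the 3M Control group held the lowest value of its group for Lgals1, Lgals3 and Lgals3bp, and the differences are given without it below. The median difference between STZ and control over all 22025 tested probes was 0.44 on the log2 scale at 3 months and 0.01 at 1 month.

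Galectin-3 joins a carbohydrate recognition domain to a long N-terminal tail through which it forms oligomers, and it is known as a product of macrophages and reactive glia and as a receptor for advanced glycation end products. Galectin-1 is a dimer of a single domain, whereas galectin-8 and galectin-9 carry a pair of different domains in 1 chain. The galectin-3 binding protein is a secreted, heavily glycosylated scavenger receptor cysteine-rich protein that binds galectins, and its gene is known as an interferon-responsive gene.

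Lgals3 (probe GE21639) was the member with the largest difference at 3 months. In 3M Control retinas the scaled intensity of Lgals3 was 0.816 at the lowest, 1.52 at the median and 2.08 at the highest. In 3M STZ retinas it was 4.64 at the lowest, 10.9 at the median and 17.4 at the highest. All 6 STZ arrays lay above all 6 control arrays. The mean log2 level was 0.51 ± 0.48 in control and 3.35 ± 0.63 in STZ retinas (SD, n = 6 each). Lgals3 was thus higher by 2.84 on the log2 scale (standard error 0.41), a 7.15-fold difference. Among the 3142 tested probes with a symbol this was the second largest positive difference, after the lens crystallin Crygd (4.39, standard error 0.86) and next to Timp1, an inhibitor of metalloproteinases (2.80, standard error 0.54). The difference between Lgals3 and Timp1 was much smaller than the standard error of either, so these 2 cannot be ranked. Over all tested probes, with and without a symbol, Lgals3 was 6th. In brightness before scaling the Lgals3 groups did not overlap either, with 233 to 529 in 3M Control and 706 to 2514 in 3M STZ.

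At 1 month the same probe gave a different picture. The scaled intensity of Lgals3 in 1M Control retinas was 1.52 at the lowest, 1.81 at the median and 2.26 at the highest, a narrow range. In 1M STZ retinas it was 0.527 at the lowest, 2.14 at the median and 10.3 at the highest. The STZ arrays therefore lay on both sides of the controls, with array 2 at the brightness of the 3 month diabetic retinas and array 4 under every other array of the series. The mean log2 level was 0.84 ± 0.21 in control and 1.12 ± 1.41 in STZ retinas (SD, n = 6 each). The difference was 0.28 on the log2 scale (standard error 0.41, 95% interval -0.57 to 1.12), and limma gave an adjusted p of 1.00. Without 1M STZ array 2 the difference turned to -0.17, and without 1M STZ array 4 it was 0.68. The interval runs from 0.675-fold to 2.17-fold, so changes within that range were not excluded by these arrays. Its standard error rests on a spread pooled over the 4 groups. In separate models of the time points the standard error was 0.48, and without assuming equal variances it was 0.58.

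**Figure D1:**
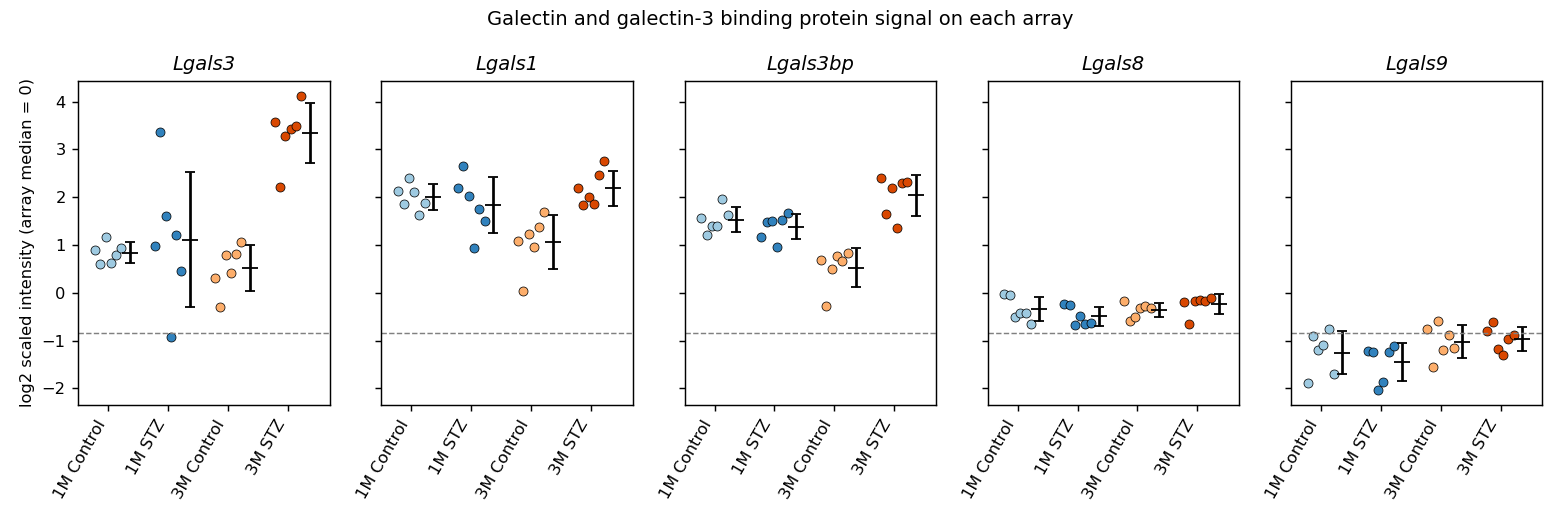
The log2 scaled intensity of the 5 probes on each of the 24 arrays is plotted by group, where 0 is the median rat probe of an array. Each dot is 1 array, the bars are the mean ± SD of 6 arrays, and the dashed line is the limit for testing. Lgals3 in 3M STZ retinas lay above every 3M Control array, Lgals3 in 1M STZ retinas scattered from 0.527 to 10.3 in scaled intensity, and most Lgals9 dots lay under the line.

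Lgals1 (probe GE20705), whose product binds many of the same cell surface glycans, was also higher at 3 months. Its scaled intensity in 3M Control retinas was 1.03 at the lowest, 2.25 at the median and 3.21 at the highest. In 3M STZ retinas it was 3.55 at the lowest, 4.30 at the median and 6.75 at the highest. The groups did not overlap, although the gap was small. The mean log2 level was 1.06 ± 0.56 in control and 2.19 ± 0.37 in STZ retinas (SD, n = 6 each), a difference of 1.13 (standard error 0.25) or 2.18-fold. It was 0.75 after quantile normalization, and 0.45 (standard error 0.38) and no longer called with array spread as a covariate. Before scaling, the Lgals1 groups did overlap, with brightness from 309 to 726 in 3M Control and from 541 to 974 in 3M STZ. At 1 month the Lgals1 scaled intensity ran from 3.11 to 5.32 in control (median 3.98) and from 1.91 to 6.29 in STZ retinas (median 3.698). The groups overlapped, and the difference was -0.17 (standard error 0.25, 95% interval -0.67 to 0.34), with an adjusted p of 1.00 by limma. It was 0.01 without 1M STZ array 4, which held the lowest Lgals1 value of its group.

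Lgals3bp (probe GE13281) lay between these in its 3 month difference. Its scaled intensity in 3M Control retinas was 0.825 at the lowest, 1.59 at the median and 1.77 at the highest. In 3M STZ retinas it was 2.56 at the lowest, 4.73 at the median and 5.32 at the highest. All STZ arrays were above all control arrays. The mean log2 level was 0.52 ± 0.41 in control and 2.04 ± 0.43 in STZ retinas (SD, n = 6 each), a difference of 1.51 (standard error 0.20) or 2.85-fold, the 31st largest positive difference of a probe with a symbol. Before scaling the Lgals3bp groups overlapped, with brightness from 247 to 433 in 3M Control and from 412 to 872 in 3M STZ. At 1 month the scaled intensity of Lgals3bp was 2.31 to 3.92 in control (median 2.80) and 1.94 to 3.18 in STZ retinas (median 2.81). These groups overlapped almost fully, and the difference of -0.15 (standard error 0.20, 95% interval -0.55 to 0.26) had an adjusted p of 1.00 by limma.

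Lgals8 (probe GE20855), whose product is known to mark damaged endosomes and lysosomes, had a dim probe. Its scaled intensity was 0.668 at the lowest, 0.802 at the median and 0.886 at the highest in 3M Control retinas. It was 0.636 at the lowest, 0.888 at the median and 0.930 at the highest in 3M STZ retinas. The groups overlapped, and the difference was 0.12 on the log2 scale (standard error 0.14), less than the median of all tested probes. At 1 month the scaled intensity was 0.636 to 0.980 in control and 0.624 to 0.849 in STZ retinas, with a difference of -0.15 (standard error 0.14, 95% interval -0.43 to 0.14) and an adjusted p of 1.00 by limma. The 95th percentile of the bacterial probes, which have no rat target and show the background of an array, was above Lgals8 on 20 of the 24 arrays. The Lgals8 probe thus lay close to background in every group.

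Lgals9 (probe GE1103039), whose product binds the receptor Tim-3, was dimmer still, with a median scaled intensity of 0.446 against a limit of 0.554. Its values ran from 0.342 to 0.664 in 3M Control and from 0.403 to 0.655 in 3M STZ retinas, and from 0.270 to 0.591 and 0.243 to 0.460 in the 1 month groups. Lgals9 exceeded that bacterial level on 0 of the 24 arrays. In a model without the limit the difference was 0.07 at 3 months and -0.20 at 1 month (standard error 0.21 for both), and the probe was not above background in any group.

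Of the 4 tested members, 3 were called higher at 3 months (adjusted p under 0.05 and at least 1.2-fold), and for the same 3 all STZ arrays lay above all control arrays. Of all tested probes, 50.5% were called higher and 3.55% lower, and 9.49% had all STZ arrays above all control arrays. After quantile normalization the same 3 members were called, against 24.6% of all tested probes called higher and 6.92% lower. By the test of the study's methods, which compares the groups of a time point without assuming equal variances, the same 3 passed, against 15.8% higher and 1.13% lower. Since Lgals3 was chosen on this contrast, nothing is read from these counts. At 1 month limma called 0 of the 4 members, and 0 had an unadjusted p under 0.05. By the methods' test 0 of the 4 passed at 1 month as well, and in 0 of the 4 did the groups lie apart. The background at 1 month was low, with 0.00908% of all tested probes called, 4.21% with an unadjusted p under 0.05, 1.19% called by the methods' test and 0.545% with groups that did not overlap.

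**Figure D2:**
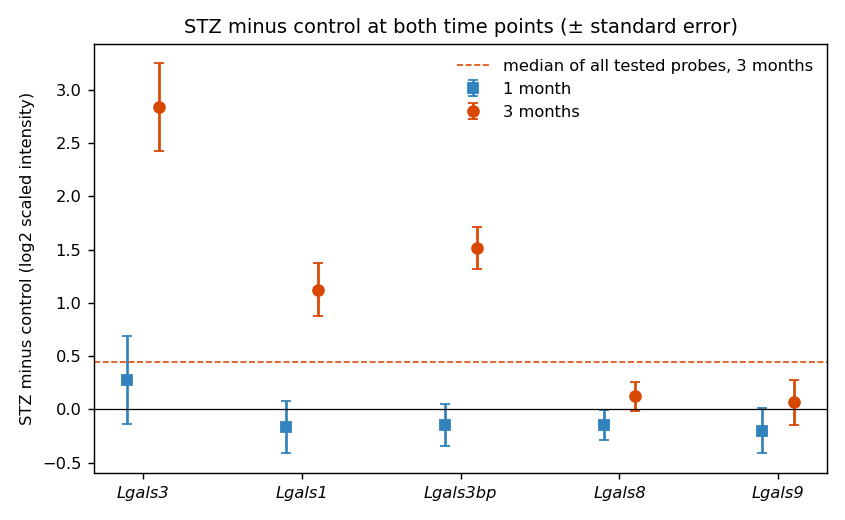
The STZ minus control difference of each of the 5 probes is plotted on the log2 scale at 1 month (squares) and 3 months (circles), with standard errors from the linear model and the median of all tested probes at 3 months as a dashed line. Lgals3 (2.84), Lgals3bp (1.51) and Lgals1 (1.13) lay above that line at 3 months, while Lgals8, Lgals9 and all 1 month values lay near 0.

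The change of the STZ effect between the time points was largest for Lgals3, at 2.56 on the log2 scale (standard error 0.58). It was 1.66 for Lgals3bp (0.28), 1.29 for Lgals1 (0.35), 0.27 for Lgals8 (0.20) and 0.26 for Lgals9 (0.29). These contain the 3 month differences and are descriptions too. The control retinas also differed between the times. Lgals3bp was lower in 3M Control than in 1M Control by 1.00 on the log2 scale (standard error 0.20) and Lgals1 by 0.94 (0.25), while Lgals3 gave -0.33 (0.41) and Lgals8 gave -0.02 (0.14). The mean log2 level of Lgals1 was 2.19 ± 0.37 in 3M STZ and 2.00 ± 0.27 in 1M Control retinas, and these arrays overlapped, while the 3M STZ arrays of Lgals3 lay above every 1M Control array. The 3 month arrays had a smaller spread than the 1 month arrays, so age and the array set cannot be told apart.

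The arrays of 1 group differed from each other, and for Lgals1 and Lgals3 these differences went together. The deviation of each probe from its group mean was compared between all 10 pairs of the 5 members, a choice made after the values were seen, with 100000 permutations of arrays within groups. Lgals1 and Lgals3 deviated together over the 24 arrays (Pearson's r = 0.83, adjusted permutation p = 0.0001, with a raw p of 1e-05 that is the smallest these permutations can give; Spearman's rank correlation = 0.79, raw p = 9e-05, adjusted p = 0.0009). Without 1M STZ array 4 and 3M Control array 2, the arrays farthest from the median of Lgals1, r was 0.77. Within the groups r was 0.55 in 1M Control, 0.94 in 1M STZ, 0.97 in 3M Control and 0.77 in 3M STZ. For comparison, the deviations of Lgals3 correlated with those of all tested probes at a median of 0.12 and a 95th percentile of 0.45, and those of Lgals1 at 0.34 and 0.67.

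Lgals3bp shared less of this pattern. Its correlation with Lgals3 was 0.45 (adjusted permutation p = 0.064, raw p = 0.0175), and with Lgals1 0.52 (adjusted permutation p = 0.064, raw p = 0.0192), which dropped to 0.20 without the same 2 arrays. Spearman's rank correlation was 0.41 and 0.25 for these pairs. Neither passed the adjustment for 10 pairs. The other 7 pairs had r between 0.03 and 0.39, and none had an adjusted p under 0.05. All probes of an array share its scaling and its RNA, so part of any such correlation is common to the array.

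**Figure D3:**
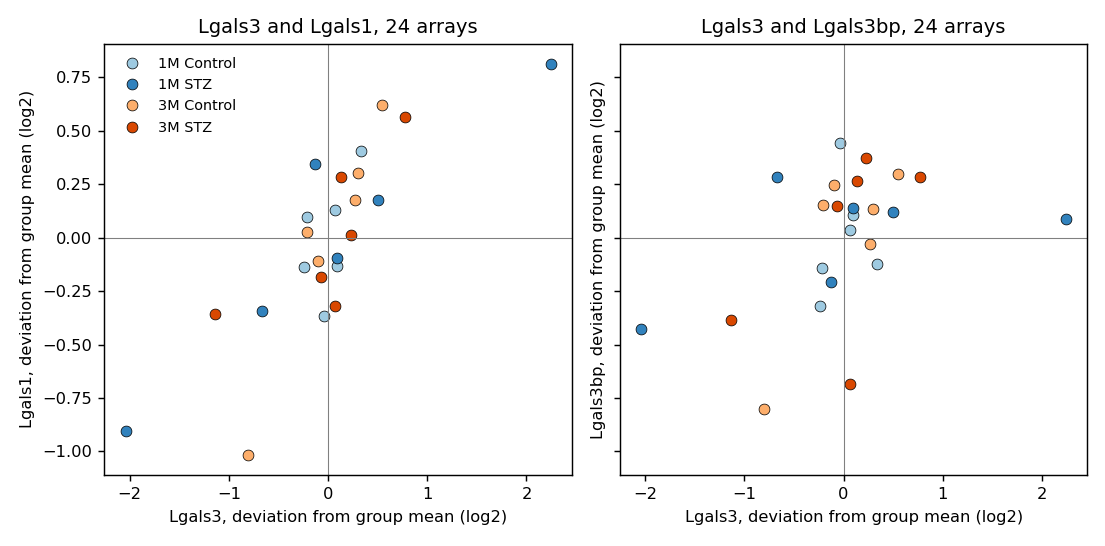
The deviation of Lgals3 from its group mean on the log2 scale is plotted against that of Lgals1 (left) and Lgals3bp (right), with 1 dot per array and the color giving the group. The Lgals1 dots follow the Lgals3 dots (r = 0.83), including 1M STZ arrays 2 and 4 at the upper and lower ends, and the Lgals3bp dots follow less closely (r = 0.45).

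Likeness to Lgals3 over the 24 arrays was ranked among the genes with a symbol. Over all tested probes the highest r was 0.98 by level and 0.95 by deviation. Of the genes with a symbol, S100a4, a calcium-binding protein (r = 0.94), and the lens epithelial gene Lenep (0.89) followed the level of Lgals3 most closely. Next came the caveolar protein gene Cavin3 (0.89), the GABA transporter gene Slc6a11 (0.88) and the crystallin gene Crygd (0.87). After the group means were taken off they were Prx, known from myelin and lens fibers (0.90), S100a4 (0.89), the crystallin gene Crybb1 (0.88), the surface glycoprotein gene Cd24 (0.86) and Slc6a11 (0.86). Crygd, Crybb1 and Lenep are lens genes, so the lens list was set beside Lgals3. The deviations of all 10 lens genes correlated with those of Lgals3 above the 95th percentile of all tested probes, from 0.45 to 0.88 (median 0.77). Grifin is 1 of the 10 and was not above background at 3 months, so its deviations on those arrays are those of background. With Lgals1 4 of the 10 lens genes passed that percentile (median r 0.61), and with Lgals3bp 1 did (median r 0.45).

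For other cells the correlations with Lgals3 were lower. The 4 microglia and macrophage genes had a median r of -0.09 with Lgals3 and 0 above the 95th percentile. The 8 genes of reactive Müller glia and astrocytes had a median r of -0.01, with 2 above it. These are descriptions over 24 arrays with no test, and they were computed after the values were seen.

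The lens signal moved with the groups as well. The summed scaled intensity of the 10 lens genes was 274 to 709 in 1M Control, 64.6 to 697 in 1M STZ, 168 to 429 in 3M Control and 584 to 997 in 3M STZ. At 3 months 8 of the 10 genes rose, where 50.5% of all tested probes were called higher. The median difference of the list was 1.44 against 0.44 for all tested probes. Both the 10 and the median include Grifin (0.19), which was not above background at 3 months. The lowest lens sum of the series was on 1M STZ array 4 and the highest of that group on array 2, the same arrays that held the lowest and highest Lgals3 of the group. In 3M Control the order of the 6 arrays by lens sum was the order by Lgals3. In 1M Control it was not. Array 5 of 1M Control, with a lens sum of 709, had a Lgals3 scaled intensity of 1.74. The 3M STZ arrays, with sums of 584 to 997, had 4.64 to 17.4. These sums are not alike across the time points, since Grifin gave 31.7 to 122 in 1M Control and at most 0.103 in 3M STZ. Crygd reached 5.17 in 1M Control against a median of 49.2 in 3M STZ, whereas Cryba2 reached 187 against a median of 157. The part of lens RNA in the Lgals3 difference was not tested.

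**Figure D4:**
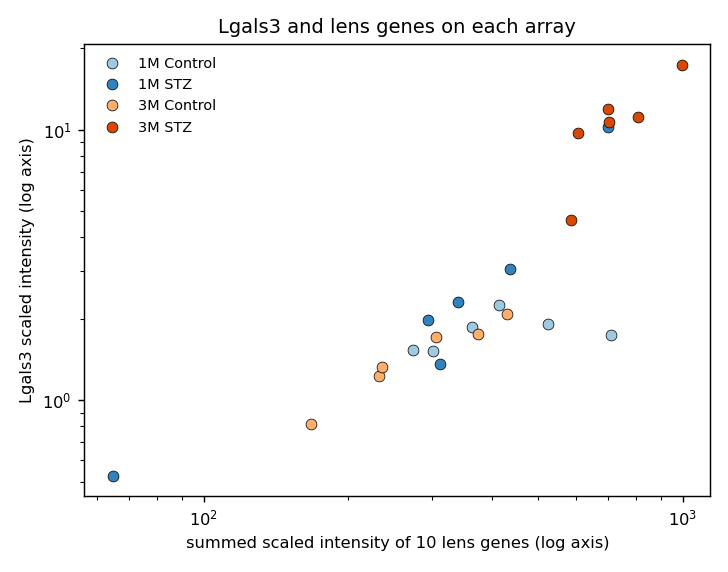
Lgals3 scaled intensity (vertical, log axis) is plotted against the summed scaled intensity of 10 lens genes (horizontal, log axis), with 1 dot per array and the color giving the group. The 3M STZ arrays lay at the upper right, 1M STZ array 4 at the lower left, and 1M Control array 5 had a lens sum of 709 with a Lgals3 value of 1.74. Sums at 1 and 3 months are not alike, since Grifin was bright at 1 month only.

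Markers of other cells that make galectin-3 were set beside it. Scaled intensity was summed over all 8 microglia and macrophage genes with a probe, of which 4 were tested. The sum was 6.59 to 12.1 in 3M Control (median 6.84) and 8.88 to 10.6 in 3M STZ retinas (median 9.53). The STZ median was higher, and the sums overlapped through the upper end of the controls, where Aif1 reached 6.68 on 1 array against a median of 2.39. The complement gene C1qb (1.25, standard error 0.17) and the integrin gene Itgam (0.64, 0.19) rose. By limma Aif1 (0.21, adjusted p = 0.400) and Cd14 (0.09, adjusted p = 0.678) did not pass. In 3M Control, C1qb (0.673 to 1.43) and Itgam (0.506 to 1.27) lay near or under the bacterial 95th percentile of 1.16 to 1.72. In 3M STZ, where that percentile was 1.31 to 1.72, C1qb (1.86 to 2.89) lay above it and Itgam (1.12 to 1.55) near it. The sizes of these rises are thus uncertain. The defining markers Cx3cr1, Ptprc, P2ry12 and Lyz2 were under the limit for testing. Of 8 genes of reactive Müller glia and astrocytes, 7 rose (50.5% of all tested probes were called higher), with a median difference of 1.42 against 0.44 for all tested probes, and their sum was 21.97 to 50.1 in 3M Control and 76.6 to 113 in 3M STZ retinas without overlap. In whole retina, more cells of a type and more RNA per cell cannot be told apart, and the part of either cell type in the Lgals3 and Lgals3bp differences was not tested.

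The genes most like Lgals3bp, ranked among those with a symbol, were others. By level they were Mvp, the major vault protein gene (r = 0.94), Crip2 (0.93), and Anxa5, Cd81 and Dbnl (0.92 each). By deviation from the group means they were Aatf (0.86), the proteasome subunit gene Psmc4 (0.85), Tmed10 (0.85), the tetraspanin gene Cd81 (0.85) and Nup210 (0.84). The background was higher than for Lgals3, since the levels of all tested probes correlated with Lgals3bp at a median of 0.46 and their deviations at 0.34. The highest r of any tested probe with Lgals3bp was 0.95 by level and 0.88 by deviation. No gene was in the lists of both Lgals3 and Lgals3bp.

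Promoter sequence from RefSeq, on build GRCr8, was at hand for 3 of the 5 members. It is shown to set the gene that was higher at 3 months, Lgals3bp, beside the dim Lgals8 and Lgals9. Each line gives the 250 bases before the start that the promoter table uses for the gene, 5′ to 3′ on the strand of the gene, with matches to the searched motifs in capitals. Lgals3bp is at chr10:104127849-104128098 on the minus strand, Lgals8 at chr17:62719603-62719852 on the plus strand and Lgals9 at chr10:64428071-64428320 on the minus strand. For Lgals3bp that start is the outer end of the annotated gene. For Lgals8 it lies 3485 bases, and for Lgals9 179 bases, inside the annotated gene, so those windows are partly or wholly within the gene and other starts were not searched.
Lgals3bp: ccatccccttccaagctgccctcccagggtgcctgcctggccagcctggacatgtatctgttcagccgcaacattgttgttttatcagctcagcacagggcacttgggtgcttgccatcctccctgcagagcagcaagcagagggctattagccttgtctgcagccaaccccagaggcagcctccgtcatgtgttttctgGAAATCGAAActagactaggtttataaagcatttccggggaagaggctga
Lgals8: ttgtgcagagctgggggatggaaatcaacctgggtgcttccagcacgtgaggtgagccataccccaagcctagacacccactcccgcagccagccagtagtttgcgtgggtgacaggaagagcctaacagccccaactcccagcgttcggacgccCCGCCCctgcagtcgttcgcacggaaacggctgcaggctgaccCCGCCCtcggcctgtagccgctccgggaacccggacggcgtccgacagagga
Lgals9: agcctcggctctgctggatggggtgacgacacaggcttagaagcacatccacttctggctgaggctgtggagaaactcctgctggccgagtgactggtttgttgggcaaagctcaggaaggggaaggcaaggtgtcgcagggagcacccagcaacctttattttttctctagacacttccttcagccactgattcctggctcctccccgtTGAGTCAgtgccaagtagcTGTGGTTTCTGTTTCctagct

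Lgals3bp held 1 match to a pair of GAAA units with 2 bases between them, the core of the interferon-stimulated response element, 50 bases before its start. This motif was in 3.41% of 33469 rat promoters of the same length, searched on both strands as all motifs were. Lgals9 held the same motif on the opposite strand 16 bases before the table's start, where it overlaps a Runx match, TGTGGT (14.5% of promoters), and an AP-1 match, TGANTCA, 40 bases before that start (6.34%). Lgals8 held 2 Sp1 boxes, GGGCGG, 95 and 52 bases before the start its window uses (30.5%), on the strand opposite to the one printed. The STAT motif TTCNNNGAA (7.67%) and the CRE motif TGACGTCA (1.59%) were in none of the 3 windows. The G and C content was 54.8% for Lgals3bp and Lgals9 and 65.2% for Lgals8, against a median of 51.2% over all promoters. A match is a run of letters and not a measured binding site.

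Of the other galectins on the array, Lgals5 and Lgals7 were above the limit for testing in the 3 month groups. The scaled intensity of Lgals5 was 0.699 to 1.13 in 3M Control and 0.790 to 0.919 in 3M STZ retinas. It thus lay under the bacterial 95th percentile of every 3 month array, the lowest of which was 1.16. Lgals5, a rat erythrocyte galectin, gave 0.04 on the log2 scale at 3 months (standard error 0.15), and Lgals7, the galectin of stratified epithelia, -0.39 (0.32). Neither was called by limma, with adjusted p of 0.830 and 0.298. Lgals2 (-0.33, standard error 0.34) and Lgals4 (-0.67, standard error 0.21) were under the limit and were not tested. Grifin, a lens protein related to galectins, had a scaled intensity of 31.7 to 122 in 1M Control and 7.28 to 110 in 1M STZ but 0.0171 to 0.0781 in 3M Control and 0.0124 to 0.103 in 3M STZ. It passed the limit through the 1 month groups alone and was not above background at 3 months, so it has no 3 month comparison, although it counts among the 31 partner genes tested. The sum of the 10 lens genes, Grifin among them, was 168 to 997 on the 3 month arrays, and the cause of the low Grifin signal there was not tested.

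Partner genes of the galectins were grouped into 5 lists with 79 genes, of which 39 had a probe and 31 were tested. At 3 months 18 of the 31 were called higher (58.1%), near the 50.5% of all tested probes, and 1 was called lower. Their median difference was 0.50, against 0.44 for all tested probes. At 1 month limma called 0 of the 31, and 1 had an unadjusted p under 0.05, the amino acid transporter chain Slc3a2.

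Of 5 tested genes listed as receptors for advanced glycation end products, 2 rose, where 50.5% of all tested probes were called higher. These were Olr1 (1.04, standard error 0.23) and Cd36 (0.59, 0.20). Ager, the receptor known as RAGE, gave 0.48 with an adjusted p of 0.0522 by limma. Scarb2 (0.33) and Scarb1 (0.26) were lowest and did not pass. Of 14 tested glycoproteins that bind galectins, 8 rose and 1 fell, where 50.5% of all tested probes were called higher and 3.55% lower. Cd44, the hyaluronan receptor, rose by 1.33 (0.24), the lysosomal glycoprotein gene Lamp1 by 0.80 (0.28) and the neural adhesion gene L1cam by 0.76 (0.24). Vtn, vitronectin, fell by 0.63 (0.25), with overlapping scaled intensities of 0.850 to 3.29 in 3M Control and 0.642 to 1.12 in 3M STZ. Its call was lost by the methods' test, in separate models of the time points, and without 3M Control array 2 or 3 or 3M STZ array 3. Slc3a2 gave -0.34 with an adjusted p of 0.184. Of 5 tested genes listed as N-glycan branching and capping enzymes, all 5 rose, where 50.5% of all tested probes were called higher. Mgat2 (0.80, standard error 0.21), Mgat3 (0.76, 0.14) and Mgat1 (0.72, 0.22) were the highest. B4galt6 (0.55, 0.17) and Mgat5 (0.49, 0.15), the enzyme that makes the branches galectin-3 prefers, were the lowest. Mgat2 lay near background at 3 months, so the size of its difference is uncertain. Its scaled intensity was 0.292 to 1.08 in control and 1.05 to 1.33 in STZ retinas. The bacterial 95th percentile on those arrays was 1.16 to 1.72 and 1.31 to 1.72.

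Of 4 tested genes of damaged lysosomes and their removal, 3 rose, where 50.5% of all tested probes were called higher. These were the protease gene Ctsb (0.64, 0.13) and the autophagy genes Becn1 (0.54, 0.17) and Map1lc3b (0.50, 0.18). The lysosomal protease gene Ctsd gave 0.36 on its brighter probe (adjusted p = 0.0972 by limma) and -0.72 on its other probe, so its probes went opposite ways.

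**Figure D5:**
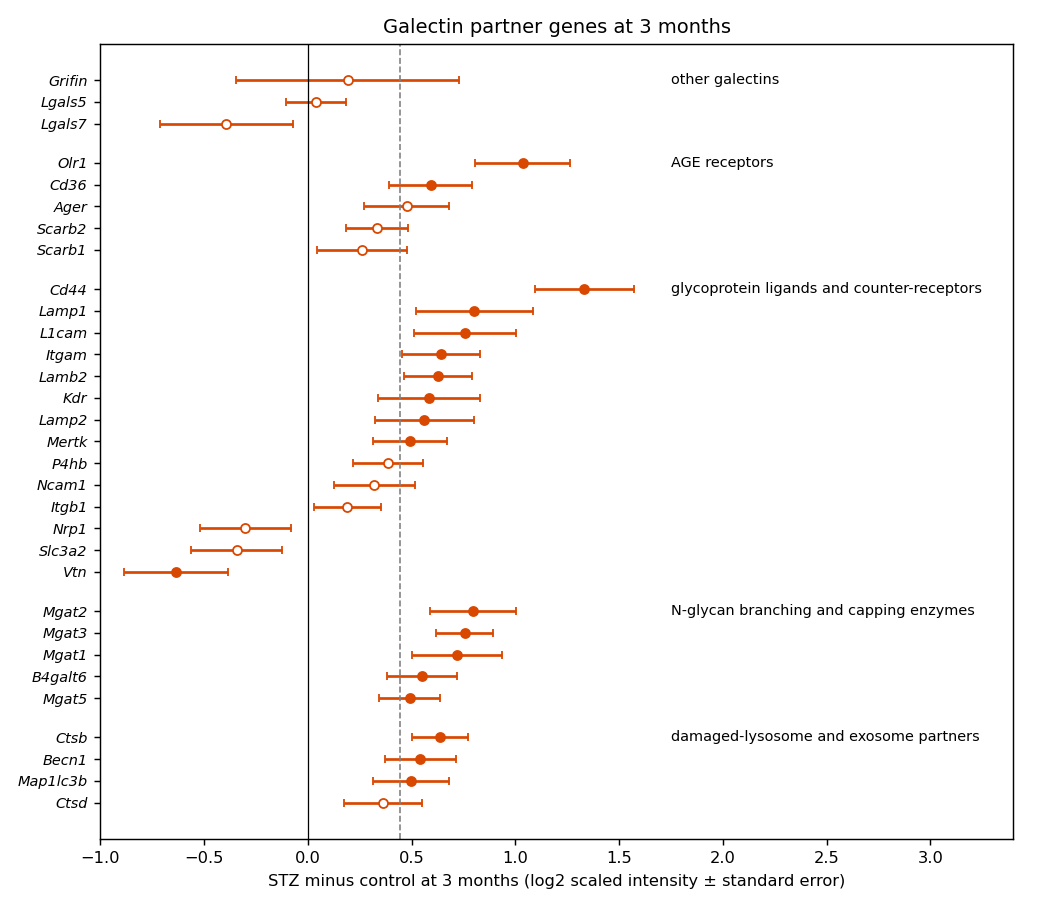
The 3M STZ minus control difference (log2 scale, with standard error) of 31 partner genes is plotted in the order of 5 lists. Filled dots were called, open dots were not, the solid line is 0 and the dashed line is the median of all tested probes, 0.44. Grifin, first in the plot, was not above background in either 3 month group. Most filled dots lay near or just above the dashed line, with Cd44 (1.33) and Olr1 (1.04) the farthest to the right and Vtn (-0.63) the farthest to the left.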

How the data were processed

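The authors scanned the arrays with GenePix 4.0 and, with CodeLink Expression Analysis Software 4.1, left out defective spots, subtracted local background and normalized within arrays. They deposited the background-subtracted intensity of 33911 probes on 24 arrays, 62 of them bacterial, and a copy divided by a value near each array's median. The build used for probe design is not given in the sources used here. Spot flags were not used. No arrays were identical, and 3 values were missing.

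Intensity was scaled to the median of each array's 33849 rat probes, raised to at least 0.01 and put on the log2 scale. Tested probes had at least 4 values per group and a median over 0.554, the 35th percentile. The 4 groups were fitted in 1 model with limma 3.58.1 (R 4.3.3), and called means a Benjamini-Hochberg adjusted p under 0.05 and 1.2-fold. On simulated data with known changes the model was tested first. Correlations used Python 3.11.15. The brightest tested probe stood for a gene. Symbols came from the RefSeq table of GRCr8 through accessions. The labels do not say whether rats shared a cage or day, so p-values measure the spread between arrays. The number of arrays and the signal over background limit precision.

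The members, partner lists and marker lists were chosen with earlier results of these data known. Named genes are all members, the other galectins, the 3 highest and 2 lowest tested genes of each partner list and the 5 genes most like Lgals3 and Lgals3bp. Alternatives were the methods' test (p under 0.01 and 1.2-fold), separate models per time point, a replicate block, quantile normalization, unscaled and series-level deposited values, subtraction of the 5th percentile, array weights, brightness and spread as covariates, no filter, every array above the limit, 0.1 as the floor, and each array left out.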

Additional observations from a re-analysis of the deposited data

Results flagged for a closer look

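In 2 of 20 sets of 6 arrays, 1 for each of the 5 galectin probes and 4 groups, a single array stood apart from the other 5 by more than Dixon's 95% critical value, which chance gives in about 1 in 20 sets. Lgals3bp on 3M Control array 2 was the lowest of its group, with a ratio of 0.7 of the group's range. Lgals8 on 3M STZ array 2 was the lowest of its group, with a ratio of 0.852.

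The STZ effect on the log2 scale at 3 months was above that at 1 month, by limma's interaction term, for 4 of 31 tested partner genes, against 15.5% of all tested probes. For Cd44 the effects differed by 1.67 (standard error 0.34, adjusted p = 0.0119), from -0.34 at 1 month to 1.33 at 3 months. For Olr1 they differed by 0.949 (standard error 0.32, adjusted p = 0.0462), for Lamb2 by 0.76 (0.23, adjusted p = 0.0350) and for Mgat3 by 0.684 (0.19, adjusted p = 0.0294).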

How the results depend on the processing

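At 3 months Lgals1, Lgals3 and Lgals3bp were called under every alternative that tested them other than the spread covariate, under which limma called 0 of all probes (1934 with an unadjusted p under 0.05) and gave 0.45 for Lgals1, 2.51 for Lgals3 and 1.23 for Lgals3bp. Lgals3 was not tested where every array had to be above the limit. Each array left out gave 2.68 to 3.07 for Lgals3, 1.35 to 1.65 for Lgals3bp, 0.92 to 1.25 for Lgals1, 0.08 to 0.21 for Lgals8 and -0.04 to 0.15 for Lgals9, with the lowest value of each without 3M Control array 2. Quantile normalization gave 2.52 for Lgals3, 1.23 for Lgals3bp, 0.75 for Lgals1, 0.35 for Lgals8 and 0.52 for Lgals9. At 1 month no alternative called a member. Each array left out gave -0.17 to 0.68 for Lgals3, -0.33 to 0.015 for Lgals1, -0.21 to -0.06 for Lgals3bp, -0.21 to -0.08 for Lgals8 and -0.33 to -0.08 for Lgals9, and array weights turned Lgals3bp to 0.046. Lgals1 reached 0.0147 without 1M STZ array 4.

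Partner genes called higher numbered 6 by the methods' test, 6 after quantile normalization, 4 with the brightness covariate, 0 with the spread covariate and 12 (without 3M Control array 2) to 22 with an array left out. Those called lower, Vtn alone in the reported model, numbered 3 after quantile normalization and without the filter, 0 by the methods' test, in separate models, with detection on all arrays and with either covariate, and 0 to 1 with an array left out (0 without 3M Control arrays 2 or 3 or 3M STZ array 3). None were called at 1 month. The cause of these shifts was not tested.

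Over all probes, 11911 calls at 3 months became 6948 after quantile normalization and 4058 with the brightness covariate, and the 11130 higher calls became 3473 by the methods' test. After quantile normalization the median of all probes was 0.16. At 1 month the 2 calls became 360 with array weights and 262 by the methods' test. With the replicate block Lgals3 kept its difference of 2.84 at 3 months (standard error 0.43), and 17 partner genes were called higher. No member's call changed with it. Whether equal numbers pair the samples was not settled, since correlations cannot exclude a shared cage or day. Of 12 same-numbered pairs, 5 correlated above 0.1 (-0.238 to 0.252). Of the 12 control arrays, 3 correlated best with the STZ array of their own number.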
